A study of Mus musculus with 12 samples.

Results

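Pdgfra, Cspg4, Bcas1, Gpr17, Olig1, Olig2, Sox10 and Vcan are genes of oligodendrocyte precursors and of the lineage they give rise to. These 8 genes were taken by symbol from the 46517 Ensembl identifiers in the count data, and each symbol matched 1 identifier. The mice carried, in the ventromedial nucleus (VMN) of the hypothalamus, an AAV vector for GFP-L10, a green fluorescent protein fused to a ribosomal protein. This tag allows ribosomes, and the RNA they hold, to be pulled down by translating ribosome affinity purification (TRAP), here directed at SF1 cells, which are VMN neurons marked by the transcription factor SF1 (Nr5a1). Each pool of 6 mice gave an output library of pulled-down RNA and an input library of the dissected VMN. There were 3 libraries each of DN output, DN input, CTRL output and CTRL input, and all mice had eaten regular chow and were fasted overnight.

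DN mice had also received an AAV vector for dominant-negative AMPK, and AMPK is a kinase that responds to low cellular energy. The sample characteristics record that CTRL mice lacked this mutant, whereas 1 treatment text shared by all samples names the dominant-negative vector, and the characteristics were followed. Whether CTRL mice received another vector in its place was not stated, so the mutant and a second injection cannot be told apart. How the tag was restricted to SF1 cells, and the strain, age and sex of the mice, were not given in the sources used here.

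Oligodendrocyte precursors divide and migrate in the adult brain and differentiate into the cells that form myelin. PDGF, released by neurons and astrocytes, acts on the receptor PDGFRα (Pdgfra) to keep precursors dividing, while the transcription factors Olig2, Olig1 and Sox10 set and hold the lineage identity. Once a precursor commits to differentiation it loses Pdgfra and the proteoglycan NG2 (Cspg4), passes through a stage marked by Gpr17 and Bcas1, and then makes myelin. Several of the genes are not private to the lineage: pericytes also carry Cspg4, and fibroblasts of the vessel wall and meninges carry Pdgfra.

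The promoter sequences of Pdgfra and Vcan are shown because only these 2 members had a promoter window that could be printed. Any link between their letters and the pull-down was not tested. Pdgfra was lower in output than in input in every pool, and Vcan in every pool but CTRL pool 2. Pdgfra passed the test in DN and in CTRL, calls that some alternatives lost, and Vcan passed in neither. RefSeq promoters (build GRCm38.p6) were at hand for 4 of the 8 genes, and for Pdgfra and Vcan the 250 bases before the RefSeq start also lay outside the GENCODE gene. The Pdgfra bases are chr5:75152001-75152250 on the plus strand, and the Vcan bases are chr13:89742513-89742762 on the minus strand, each printed 5′ to 3′ on the strand of the gene. Capitals mark GC boxes, the letters GGGCGG or their reverse complement CCGCCC.
Pdgfra: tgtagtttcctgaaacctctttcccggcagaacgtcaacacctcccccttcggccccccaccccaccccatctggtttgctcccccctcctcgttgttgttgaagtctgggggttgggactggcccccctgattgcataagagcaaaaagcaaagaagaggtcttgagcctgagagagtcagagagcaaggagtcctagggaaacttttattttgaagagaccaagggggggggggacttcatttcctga
Vcan: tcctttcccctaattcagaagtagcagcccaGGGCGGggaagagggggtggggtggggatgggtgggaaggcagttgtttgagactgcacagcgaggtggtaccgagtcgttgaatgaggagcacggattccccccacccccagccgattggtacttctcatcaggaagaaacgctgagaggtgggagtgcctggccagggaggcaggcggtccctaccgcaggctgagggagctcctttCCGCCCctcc
The Vcan bases held 2 GC boxes and the Pdgfra bases none, where 32.7% of 32817 RefSeq promoters of the same length held at least 1. Neither held a SOX core (ACAAAG or ACAATG on either strand, in 25.2% of promoters), an E-box CAGCTG (in 13% of promoters) or a TATAAA on either strand (in 12.4% of promoters). GC content was 54.4% in Pdgfra and 62.4% in Vcan.

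The libraries held 34.6 to 55.5 M gene counts. Mitochondrial genes took 17.9 to 26.1% of them in outputs and 74.9 to 79.7% in inputs, which left 26.2 to 32.1 M nuclear counts per output and 8.54 to 11.3 M per input. The transcription factor Fezf1, a VMN neuron gene, was higher in output than in input by a log2 fold change of 3.30 ± 0.32 (SE) in DN and 3.26 ± 0.21 in CTRL (adjusted p = 0.00013 and 1.31e-05, edgeR quasi-likelihood test with Benjamini-Hochberg adjustment). Nr5a1 averaged 22.4 ± 10.4 CPM in DN outputs and 6.03 ± 1.15 CPM in DN inputs (SD, n = 3; adjusted p = 0.0946), and 22.7 ± 12.2 CPM in CTRL outputs and 2.07 ± 0.845 CPM in CTRL inputs (adjusted p = 0.00751, edgeR). The Nr5a1 call in CTRL was lost without pool 1 (adjusted p = 0.165) or pool 2 (adjusted p = 0.108). CPM is the count scaled to library size after TMM adjustment over the 12 libraries, and every library value is given in the order of pools 1, 2 and 3. No label says more of the pools than their number, so p-values measure the spread between pools. No molecular identifiers were named, so read counts are not counts of independent molecules.

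In the tissue, all 8 genes were detected in every input library. To compare genes, levels were divided by the kilobases of exon, with the exons of all annotated transcripts merged. Which transcripts were present was not tested, and the order below depends on this length. The median over the 6 inputs was 8.48 CPM per kb for Olig1, 7.04 for Bcas1, 4.49 for Olig2 and 3.58 for Sox10. It was 3.08 for Pdgfra, 1.73 for Vcan, 1.26 for Gpr17 and 0.166 for Cspg4. The ranges of neighbours in this order overlapped except at its end, where Gpr17 (0.68 to 1.6 CPM per kb) stood above Cspg4 (0.101 to 0.461 CPM per kb). Of the genes of committed cells, Bcas1 had a higher median than the precursor genes Pdgfra, Vcan and Cspg4, whereas Gpr17 had a lower one than Pdgfra and Vcan. Most members varied little between inputs: the SD of log2 (CPM + 1) had a median over the 8 genes of 0.45 in DN inputs and 0.33 in CTRL inputs, against 0.63 and 0.48 over all protein-coding genes of 1 to 40 CPM. In outputs the members' median SD was 0.83 in DN and 0.83 in CTRL, against 0.63 and 0.55 over all such genes.

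**Figure D1:**
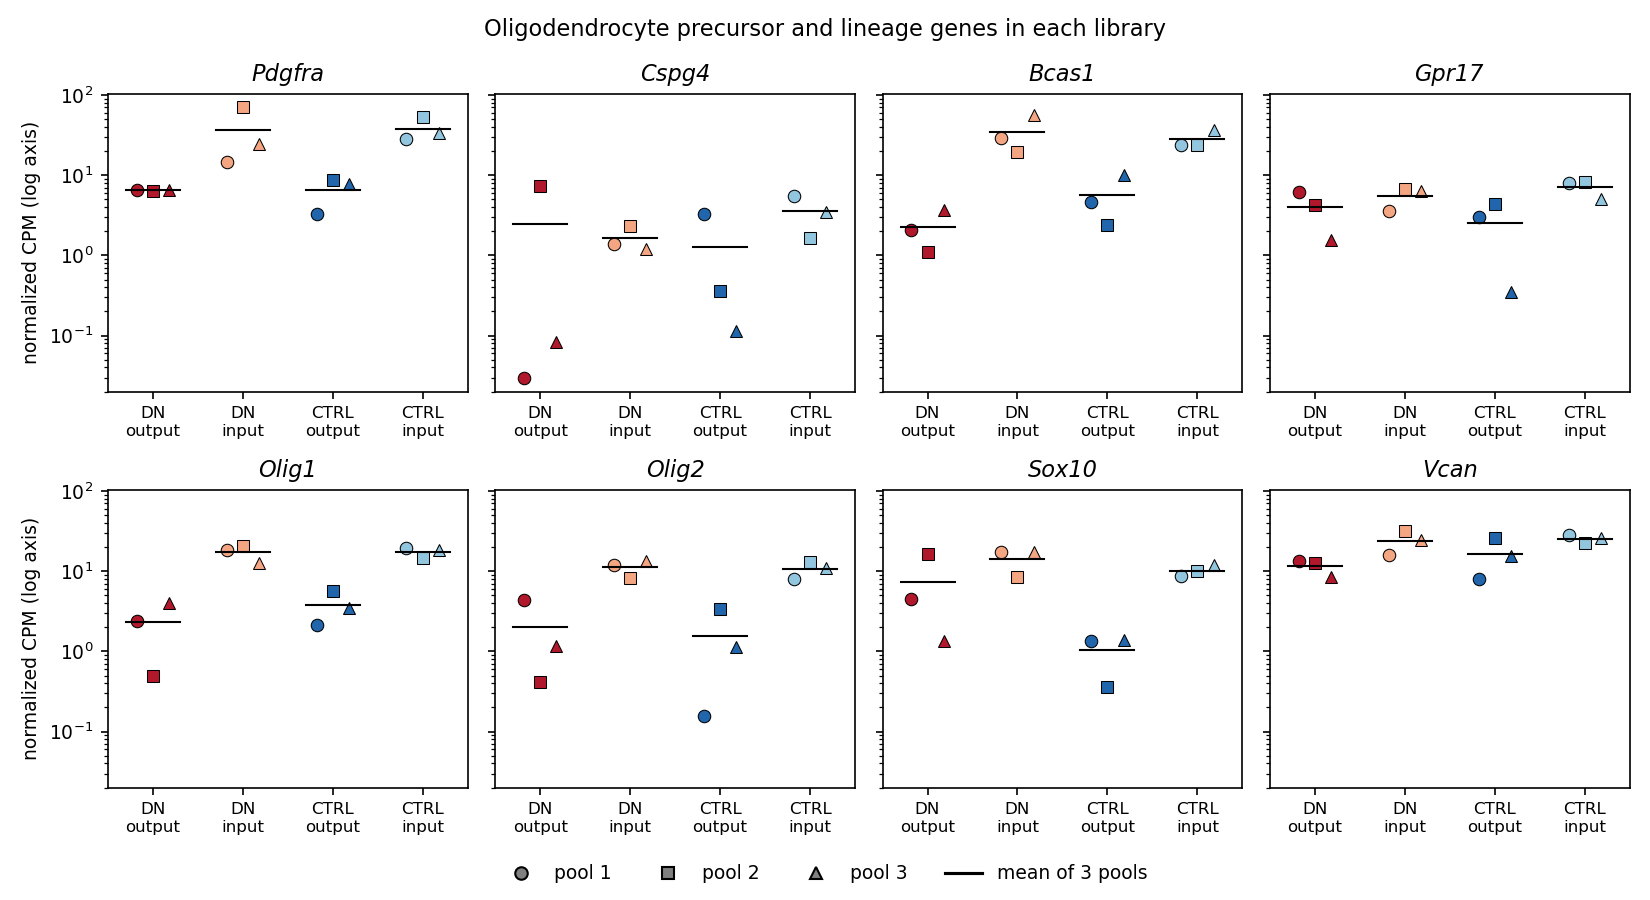
Normalized CPM (log axis) of the 8 genes in each of the 12 libraries, 1 panel per gene, with a mark per pool and a line at the mean of 3 pools. The 3 DN outputs of Pdgfra lie together at 6.37 to 6.48 CPM, below its DN inputs at 14.4 to 70.7 CPM, while Cspg4 in DN outputs runs over 0.0294 to 7.25 CPM.

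After the pull-down, Bcas1 and Pdgfra fell in both DN and CTRL, and the fitted change was below 0 for 7 of the 8 genes in DN and 8 of 8 in CTRL. The fitted change was below 0 for 49.8% of all genes tested in DN and 49% in CTRL. In DN, 2 of the 8 genes fell past the adjusted threshold of 0.05 and 0 rose, where 1.54% of the 13041 genes tested fell and 1.84% rose. In CTRL, 4 of the 8 genes fell (Pdgfra, Bcas1, Olig1 and Sox10) and 0 rose, where 1.42% of 13456 genes fell and 1.78% rose. At an unadjusted p below 0.05, 5 members fell and 0 rose in DN, and the same numbers held in CTRL. Over all genes, 2041 of 13041 in DN and 2200 of 13456 in CTRL had such a p, in either direction. By DESeq2 no member rose, while 503 genes rose in DN and 597 in CTRL. DESeq2 gave no adjusted p for Cspg4 in DN. The members' median log2 fold change was -1.79 in DN, against 0.00 over all genes tested, and -2.28 in CTRL, against 0.02 over all. Every output lay below every input for 5 of 8 members in DN and 6 of 8 in CTRL, as for 10.9% and 11.2% of all genes tested. Output and input of a pool came from the same mice, so this fall compares pulled-down RNA with tissue RNA. It does not measure the number of precursor cells or the RNA per cell. The source of the precursor RNA left in outputs was not tested. Between DN and CTRL, a difference in precursor number and one in RNA per cell cannot be told apart in these bulk samples.

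The receptor gene Pdgfra (ENSMUSG00000029231, chr5:75152292-75198215, GRCm38) had 6.48, 6.37 and 6.48 CPM in DN outputs, against 14.4, 70.7 and 24.8 CPM in DN inputs. The DN outputs were almost level, whereas the DN inputs were spread widely, with pool 2 high. Pdgfra fell by 2.52 ± 0.58 (SE) on the log2 scale in DN (adjusted p = 0.0347, edgeR). In CTRL it had 3.28, 8.82 and 7.68 CPM in outputs, against 28.4, 52.6 and 33.4 CPM in inputs, and fell by 2.54 ± 0.43 (adjusted p = 0.0107, edgeR). In both conditions the groups did not overlap, and pool 2 had the highest tissue level. With the pool as a block the DN call was lost (adjusted p = 0.0628, edgeR). It was also lost by limma-voom (0.127) and without pool 1 (0.0537), pool 2 (0.314, with a log2 fold change of -1.61) or pool 3 (0.161), and the CTRL call was lost without pool 1 (0.0717) or pool 2 (0.148), all adjusted p, from edgeR unless named.

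Among the proteoglycans, Cspg4 (ENSMUSG00000032911, chr9:56865033-56899870) codes for NG2, the surface proteoglycan that defines NG2 glia. It had 2, 487 and 6 counts in DN outputs (0.0294, 7.25 and 0.0824 CPM), against 39, 57 and 30 counts in DN inputs (1.39, 2.31 and 1.2 CPM). DN output 2 was above every input, and the DN outputs 1 and 3 were below every input. The log2 fold change was 0.57 ± 1.61 (adjusted p = 0.912, edgeR), and it was -4.48 without pool 2 (adjusted p = 0.344). In CTRL, Cspg4 had 3.29, 0.358 and 0.115 CPM in outputs, against 5.49, 1.65 and 3.48 CPM in inputs, groups that overlapped (log2 fold change -1.50 ± 1.19, adjusted p = 0.584, edgeR).

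Vcan (ENSMUSG00000021614, chr13:89655312-89742509) codes for versican, a large matrix proteoglycan of the lectican family made by precursors and by other brain cells. It had 13.5, 12.8 and 8.51 CPM in DN outputs, against 15.9, 32 and 24.2 CPM in DN inputs, and did not pass the test although the groups did not overlap (log2 fold change -1.06 ± 0.46, adjusted p = 0.291, edgeR). In CTRL it had 7.9, 25.6 and 15.5 CPM in outputs, against 28.3, 22.3 and 25.8 CPM in inputs, and CTRL output 2 lay among the inputs (log2 fold change -0.65 ± 0.42, adjusted p = 0.484, edgeR). The interval of the log2 fold change ran from -2.07 to -0.05 in DN and from -1.57 to 0.26 in CTRL (95%).

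The transcription factor genes Olig1 and Olig2 stand 41094 bases apart on chromosome 16. Olig1 (ENSMUSG00000046160, chr16:91269772-91271933) had 2.41, 0.491 and 3.98 CPM in DN outputs, against 18.3, 20.5 and 12.5 CPM in DN inputs (log2 fold change -2.90 ± 0.78, adjusted p = 0.0686, edgeR). In CTRL it had 2.12, 5.68 and 3.43 CPM in outputs, against 19.5, 14.7 and 18.3 CPM in inputs, and fell by 2.24 ± 0.49 (adjusted p = 0.0343, edgeR). Outputs and inputs did not overlap in either condition. The CTRL call was lost without any 1 of the pools (adjusted p = 0.14 to 0.235, edgeR) and in a fit of all 12 libraries (0.0898).

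Olig2 (ENSMUSG00000039830, chr16:91225457-91228677), which specifies the lineage, had 4.37, 0.417 and 1.17 CPM in DN outputs, against 11.9, 8.34 and 13.5 CPM in DN inputs (log2 fold change -2.52 ± 0.91, adjusted p = 0.183, edgeR). In CTRL it had 0.157, 3.34 and 1.12 CPM in outputs, against 8.07, 12.9 and 10.8 CPM in inputs (log2 fold change -2.79 ± 0.91, adjusted p = 0.137, edgeR). Again no output reached an input of its condition. With the pool as a block Olig2 passed in CTRL (adjusted p = 0.0452, edgeR). The level of Olig1 over that of Olig2, per kb, was 0.646, 1.38 and 3.99 in DN outputs, against 1.8, 2.87 and 1.08 in DN inputs. In CTRL this ratio was 15.9, 1.99 and 3.6 in outputs, against 2.83, 1.33 and 1.99 in inputs. The ratio spanned a wider range in outputs than in inputs in both conditions, and the groups overlapped. Some output ratios rested on few counts: 11 for Olig2 in CTRL output 1, and 33 for Olig1 and 28 for Olig2 in DN output 2. Inputs had 206 to 562 counts of these genes.

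Sox10 (ENSMUSG00000033006, chr15:79154908-79165240), a factor of the whole lineage that drives myelin genes, had 4.45, 16.4 and 1.33 CPM in DN outputs, against 17.1, 8.58 and 17.4 CPM in DN inputs. DN output 2 lay among the inputs and was above the input of its own pool, while the other DN outputs were low (log2 fold change -0.97 ± 0.80, adjusted p = 0.63, edgeR, and -2.59 without pool 2, adjusted p = 0.201). In CTRL, Sox10 had 1.35, 0.358 and 1.39 CPM in outputs, against 8.73, 9.91 and 11.9 CPM in inputs. It fell by 3.31 ± 0.70 in CTRL (adjusted p = 0.0298, edgeR), with all outputs below all inputs. That call was lost without any 1 of the pools (adjusted p = 0.11 to 0.211, edgeR).

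Of the genes of committed cells, Bcas1 (ENSMUSG00000013523, chr2:170346991-170427845), a marker of newly formed oligodendrocytes, had 2.06, 1.09 and 3.68 CPM in DN outputs, against 29.1, 19.7 and 55.6 CPM in DN inputs. It fell by 3.94 ± 0.63 in DN (adjusted p = 0.00458, edgeR). In CTRL it had 4.62, 2.38 and 10.1 CPM in outputs, against 24, 23.7 and 36.6 CPM in inputs, and fell by 2.32 ± 0.52 (adjusted p = 0.0374, edgeR). No output reached an input in either condition, and pool 3 was the highest of its group throughout. The DN call was lost without pool 1 (adjusted p = 0.0525) or pool 3 (0.0692), and the CTRL call without pool 1 (0.233) or pool 2 (0.206), by edgeR.

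Gpr17 (ENSMUSG00000052229, chr18:31942997-31949636), a G-protein-coupled receptor that marks precursors at commitment, had 6.13, 4.26 and 1.54 CPM in DN outputs, against 3.53, 6.72 and 6.4 CPM in DN inputs (log2 fold change -0.50 ± 0.84, adjusted p = 0.838, edgeR). The DN groups overlapped, and in pool 1 the output was the higher one. In CTRL it had 2.98, 4.32 and 0.345 CPM in outputs, against 8, 8.3 and 5.04 CPM in inputs, groups that did not overlap (log2 fold change -1.49 ± 0.83, adjusted p = 0.418, edgeR). Gpr17 shares 188 exon bases with Lims2 on the other strand, Pdgfra shares 456 with the antisense gene Gm42802, Bcas1 440 with Bcas1os1 and Olig1 157 with Gm15966. The strand setting of the counting was not given in the sources used here, so reads from these overlaps cannot be told apart. Lims2 had no counts in any DN output.

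Within pools, the output was below the input in 44 of 48 pairs of gene and pool, by log2 of (CPM + 1). Over all genes tested, 48.1 to 50.7% were below their input in a pool. Pdgfra, Bcas1, Olig1 and Olig2 were below their input in all 6 pools, as were 7.84% of all genes tested. Their mean log2 ratios over the 6 pools were -2.83 ± 0.73 (SD) for Bcas1, -2.31 ± 0.95 for Olig1, -2.31 ± 0.68 for Olig2 and -2.22 ± 0.79 for Pdgfra. The other 4 genes had 1 exception each: Sox10 (0.86) and Cspg4 (1.32) in DN pool 2, Gpr17 (0.65) in DN pool 1 and Vcan (0.19) in CTRL pool 2. Their means were -1.89 ± 1.44 for Sox10, -0.93 ± 0.96 for Gpr17, -0.85 ± 0.74 for Vcan and -0.75 ± 1.12 for Cspg4. These means depend on the number added before taking logs: with 0.1 in place of 1 the mean was -1.91 for Cspg4, -1.28 for Gpr17 and -0.90 for Vcan, and with 5 it was -0.21 for Cspg4, -0.48 for Gpr17 and -0.69 for Vcan. The rank of Cspg4 among the 8 genes is therefore not fixed by these ratios, and without an added number its output was 2.12, 314 and 6.87% of its input in the DN pools and 60, 21.7 and 3.3% in the CTRL pools. Bcas1 had a mean of -3.19 with 0.1 and -2.02 with 5, and Pdgfra, Bcas1, Olig1 and Olig2 stayed below 0 in all 6 pools with both. With 1 added, the median log2 ratio over all genes tested was between -0.01 and 0.00 in every pool. The lower quartile was -0.72 to -0.57 and the upper quartile 0.47 to 0.63 over the 6 pools.

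**Figure D2:**
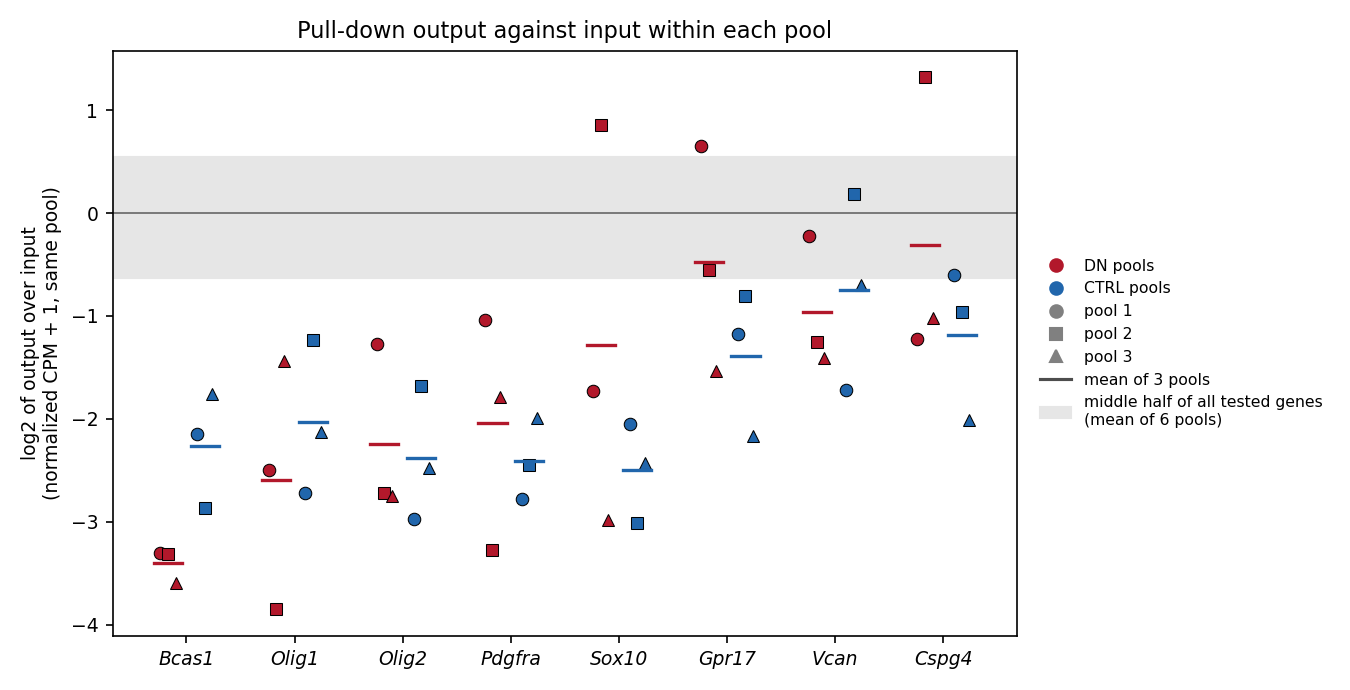
Log2 of output over input, from normalized CPM plus 1, for each gene in each of the 3 DN and 3 CTRL pools, with a short line at the mean of 3 pools and a grey band over the middle 50% of all tested genes. Bcas1, Olig1, Olig2 and Pdgfra are below 0 in all 6 pools, and the points above 0 are Sox10 and Cspg4 in DN pool 2, Gpr17 in DN pool 1 and Vcan in CTRL pool 2.

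The summed level of the 8 genes was 39.5, 49.1 and 26.8 CPM in DN outputs, against 112, 169 and 156 CPM in DN inputs. In CTRL it was 25.7, 50.9 and 39.6 CPM in outputs, against 131, 146 and 145 CPM in inputs. Every output sum was below every input sum. The output sum was 35.3, 29.1 and 17.2% of the input sum in the DN pools, and 19.7, 34.8 and 27.3% in the CTRL pools. For genes of mature oligodendrocytes and myelin the same share was 19.7 to 26.3% over the 6 pools, for astrocyte genes 31.6 to 52.7% and for microglia genes 8.99 to 30.8%. Endothelial genes kept 12.8 to 40.4%, vascular fibroblast genes 11.3 to 22.7% and pericyte and smooth muscle genes 15 to 67.6%. VMN neuron genes stood at 253 to 333% and general neuronal genes at 146 to 181%. Further lineage lists were nearer to their input: other precursor genes stood at 93.8 to 114%, at least 100% in DN pool 1 and in all 3 CTRL pools, and lineage transcription factors at 62.1 to 90.4%. Genes of differentiation-committed precursors stood at 116% in DN pool 1 and at 63.1 to 84% in the other pools. The sum of the 8 genes was thus lower in output than in input in every pool. So were the lists of mature oligodendrocytes, astrocytes, microglia, vessel cells and lineage transcription factors, while the neuronal lists were higher. The lists of other precursor genes and of differentiation-committed precursors did not keep 1 direction. These are shares of summed levels, in which the most abundant genes weigh most. Of the mean sum of the other precursor genes, Sema5a was 642 of 1570 CPM in DN outputs, against 266 of 1544 CPM in DN inputs. In CTRL it was 577 of 1436 CPM in outputs, against 254 of 1376 CPM in inputs. On that list, 11 of 17 genes tested in DN and 9 of 18 in CTRL had a fitted change below 0.

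**Figure D3:**
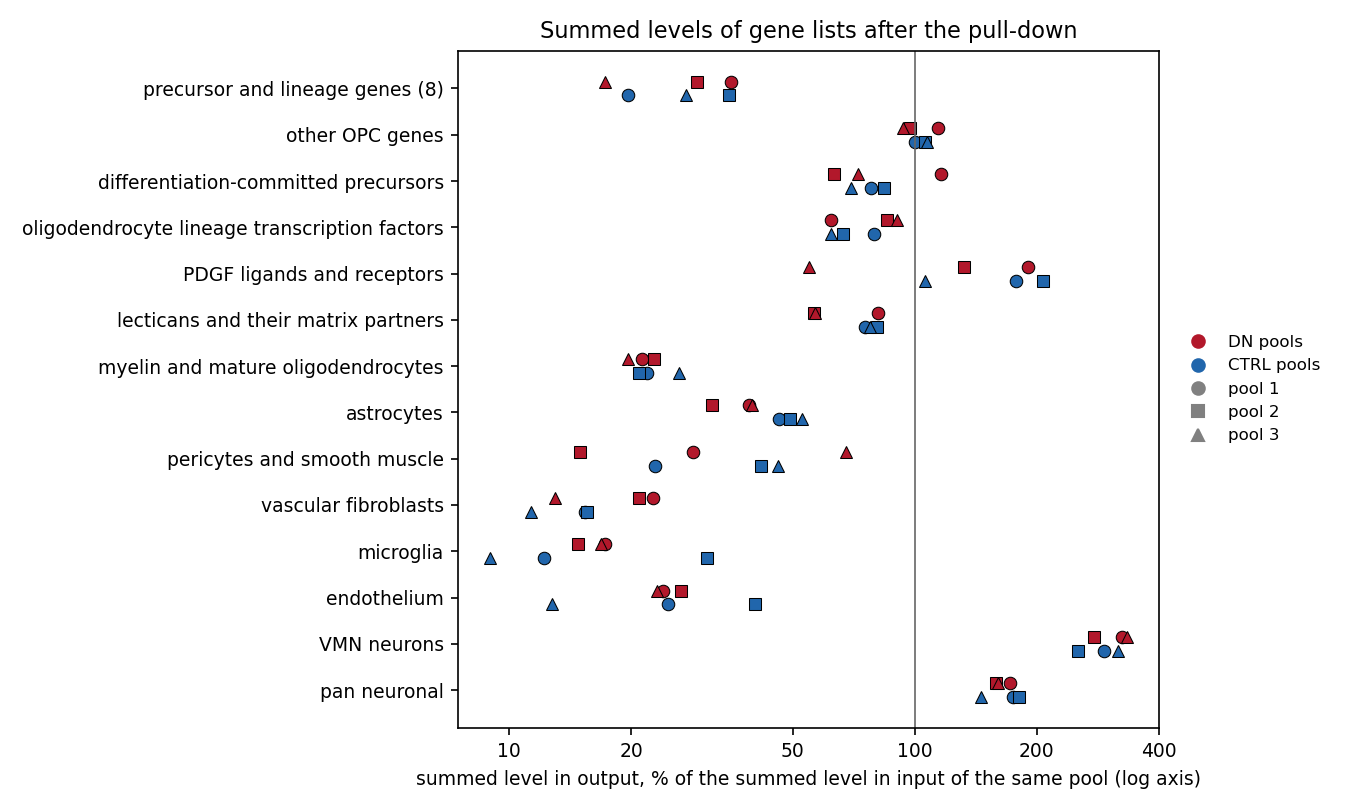
Summed normalized CPM of each gene list in the output as a percentage of that in the input of the same pool (log axis), with DN pools drawn above CTRL pools in each row. The 8 precursor and lineage genes lie at 17.2 to 35.3%, in the range of the mature oligodendrocyte, astrocyte, microglia and vascular lists, while the other precursor genes lie at 93.8 to 114% and VMN neuron genes at 253 to 333%.

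The cell-type markers that Pdgfra and Cspg4 share with other cells were also measured beside them. Vascular fibroblast genes, which as a class include Pdgfra-expressing cells, summed to 43.7, 57 and 25.8 CPM in DN outputs, against 193, 273 and 198 CPM in DN inputs, highest in pool 2 in both, as Pdgfra was in the DN inputs. In CTRL they summed to 25.5, 35.7 and 41.4 CPM in outputs, against 166, 229 and 365 CPM in inputs, where pool 3 and not pool 2 was highest, and Col3a1 of that list had no counts in any CTRL output. Apod, which is on the list of mature oligodendrocytes and myelin too, carried much of these sums: 35.8, 52.5 and 86.9% in DN outputs, against 56.1, 78.5 and 77% in DN inputs, and 9.11, 35.2 and 65.4% in CTRL outputs, against 63.5, 52.5 and 78.7% in CTRL inputs. Without Apod the fibroblast list summed to 28.1, 27.1 and 3.38 CPM in DN outputs, against 84.8, 58.6 and 45.6 CPM in DN inputs, where pool 2 was not the highest. Without it the list summed to 23.2, 23.1 and 14.3 CPM in CTRL outputs, against 60.7, 109 and 77.6 CPM in CTRL inputs, with pool 2 the highest input, as for Pdgfra. Pericyte and smooth muscle genes summed to 23.6, 10 and 47.9 CPM in DN outputs, against 83, 66.8 and 70.8 CPM in DN inputs, and to 12.6, 32.2 and 41.2 CPM in CTRL outputs, against 55, 76.9 and 89.8 CPM in CTRL inputs. In DN output 2, where Cspg4 and Sox10 were high, the pericyte sum was the lowest of the 12 libraries. Of that list, Higd1b, Acta2 and Myh11 had no counts in any DN output, but Acta2 had none in any DN input either, and Higd1b and Myh11 had 0 to 4 counts per DN input. No gene of the list was at 0 in all CTRL outputs. Myelin genes summed to 279, 370 and 268 CPM in DN outputs, highest in pool 2, against 1309, 1620 and 1360 CPM in DN inputs. In CTRL they summed to 269, 302 and 449 CPM in outputs, against 1230, 1442 and 1709 CPM in inputs. The part of other cell types in the levels of Pdgfra, Cspg4 and Sox10 was not tested.

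Further genes of precursors moved in both directions. Of 22 further precursor genes, 17 were tested in DN, of which 1 rose and 2 fell, and 18 in CTRL, of which 1 rose and 2 fell. Their median log2 fold change was -0.68 in DN and -0.22 in CTRL, with 11 of 17 and 9 of 18 below 0. Sema5a, a semaphorin, rose in both (1.26 ± 0.15 in DN, adjusted p = 0.000605, and 1.17 ± 0.13 in CTRL, adjusted p = 0.000659, edgeR), averaging 642 ± 56.6 CPM in DN outputs and 266 ± 38.9 CPM in DN inputs. Ptprz1, a receptor phosphatase of precursors and astrocytes, fell in both (-1.52 ± 0.17, adjusted p = 0.000354, and -1.70 ± 0.22, adjusted p = 0.00247, edgeR), though in CTRL not without pool 2 (0.12). Fabp7, a fatty acid binding protein of glia, fell in DN (log2 fold change -4.29 ± 1.03, adjusted p = 0.0428, edgeR), a call lost without pool 2 (0.296) or pool 3 (0.131). In CTRL, Fabp7 stood at -3.46 ± 1.34 and did not pass (adjusted p = 0.219, edgeR). Ednrb, an endothelin receptor also made by astrocytes, fell in CTRL (-2.08 ± 0.26, adjusted p = 0.00202, edgeR), a call lost without pool 1 (0.0535) or pool 2 (0.0541). In DN, Ednrb stood at -0.72 ± 0.48 (adjusted p = 0.534, edgeR).

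Of 15 matched genes of differentiation-committed precursors, 0 of 15 tested passed in DN by edgeR (3 by unadjusted p below 0.05, 1 by DESeq2) and 2 of 14 fell in CTRL. These were Tns3, a tensin of new oligodendrocytes (-1.52 ± 0.35, adjusted p = 0.0421, edgeR), and Myrf, the factor that starts myelin gene expression (-2.10 ± 0.50, adjusted p = 0.0458, edgeR). Both calls were lost without any 1 of the pools, at adjusted p of 0.0572 to 0.331 for Tns3 and 0.203 to 0.211 for Myrf, and that of Myrf also with the pool as a block (0.055). In DN, Tns3 stood at -1.45 ± 0.45 and Myrf at -1.52 ± 0.83 (adjusted p = 0.118 and 0.421, edgeR). Among 18 transcription factors of the lineage, 0 of 15 tested passed in DN by edgeR (3 by unadjusted p below 0.05, 1 by DESeq2) and 1 of 13, again Myrf, fell in CTRL. The medians of the committed list were -0.32 in DN and -0.41 in CTRL, and those of the factor list -1.14 in DN and -0.70 in CTRL. By comparison, 9 of 16 myelin genes fell in DN and 9 of 16 in CTRL, with medians of -2.30 and -2.21.

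Partners of Pdgfra and Vcan were listed as well. Of the PDGF ligand and receptor genes, 0 of 6 tested passed in DN and 0 of 5 in CTRL by edgeR, with 0 in DN and 1 in CTRL at an unadjusted p below 0.05 and 0 by DESeq2 in both. Pdgfa, the main ligand of the Pdgfra product, averaged 31 ± 6.07 CPM in DN outputs and 21.9 ± 16.6 CPM in DN inputs, and 35 ± 13.8 CPM in CTRL outputs and 16.5 ± 5.09 CPM in CTRL inputs (adjusted p = 0.711 and 0.164, edgeR). Of the lecticans and their matrix partners, 9 were tested in DN and 8 in CTRL. Hapln4, a link protein of perineuronal nets, rose in DN by 1.54 ± 0.35 (adjusted p = 0.0342, edgeR) and in CTRL by 1.10 ± 0.24 (0.0361). The DN call was lost with the pool as a block (0.0585) and without pool 1 (0.288) or pool 3 (0.165), and the CTRL call without pool 1 (0.266) or pool 2 (0.266). Bcan, which codes for the lectican brevican, fell in CTRL (-2.62 ± 0.54, adjusted p = 0.0245, edgeR), a call lost without any 1 of the pools (0.123 to 0.194). In DN, Bcan stood at -3.22 ± 0.86 and did not pass (adjusted p = 0.0677, edgeR). Ptprz1, which is on this list too, is given above.

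Of 7750 other protein-coding genes of at least 5 CPM in the inputs, those whose profile over the 12 libraries was most like the members' mean profile were mt-Co1, Ptprz1, Aldoc, Gad2, Sparcl1 and Ttyh1. Likeness was the root mean square difference of centred log2 (CPM + 1), which was 0.256 to 0.29 for these 6 genes. These genes were picked as the nearest, while the median over the genes ranked was 1.05 and the single members stood at 0.561 to 1.01 from their own mean. Aldoc is an astrocyte enzyme, whereas Gad2 is the GABA-making enzyme of inhibitory neurons and mt-Co1 is a mitochondrial gene.

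DN against CTRL was compared within each fraction to ask whether the mutant went with a change of these genes in SF1 cell ribosomes or in the tissue. In neither fraction did a member pass the test. In outputs, 0 of 8 members were called, where 0% of 13333 genes were, 721 genes had an unadjusted p below 0.05, DESeq2 called 58 and limma-voom 1. Of the members, 1 (Sox10) had an unadjusted p below 0.05, and DESeq2 and limma-voom called 0. DESeq2 gave no adjusted p for Cspg4 in this comparison. The DN and CTRL outputs overlapped for all 8 members, while 5.87% of all genes had every DN output below every CTRL output and 5.18% above. The summed level of the 8 genes averaged 38.5 ± 11.2 CPM in DN outputs and 38.7 ± 12.6 CPM in CTRL outputs (SD, n = 3).

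Sox10 in outputs differed by a log2 fold change of 2.83 ± 1.05, with a 95% interval of 0.52 to 5.13 (adjusted p = 0.911, edgeR). The difference was 1.48 without DN output 2, the library with 1101 Sox10 counts beside 302 and 97 in the other DN outputs. Bcas1 had a log2 fold change of -1.32 (interval -3.24 to 0.59), Olig1 -0.70 (-2.84 to 1.43), Olig2 0.37 (-2.50 to 3.24) and Pdgfra -0.03 (-1.43 to 1.36). Gpr17 stood at 0.64 (-1.61 to 2.88), Vcan at -0.49 (-1.63 to 0.64) and Cspg4 at 0.96 (-2.95 to 4.87). The Cspg4 value was -4.44 without DN output 2. Bcas1 was -0.62 without CTRL output 3 and -1.86 without DN output 3, and Olig1 was -1.37 without DN output 3 and -0.22 without DN output 2. With each library left out in turn, Gpr17 ran from 0.12 to 1.25 and Vcan from -0.82 to -0.01. The 95% intervals of Cspg4, Olig2, Olig1, Gpr17 and Pdgfra hold changes of more than 2-fold in either direction. Those of Bcas1 and Vcan hold a fall of more than 2-fold.

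**Figure D4:**
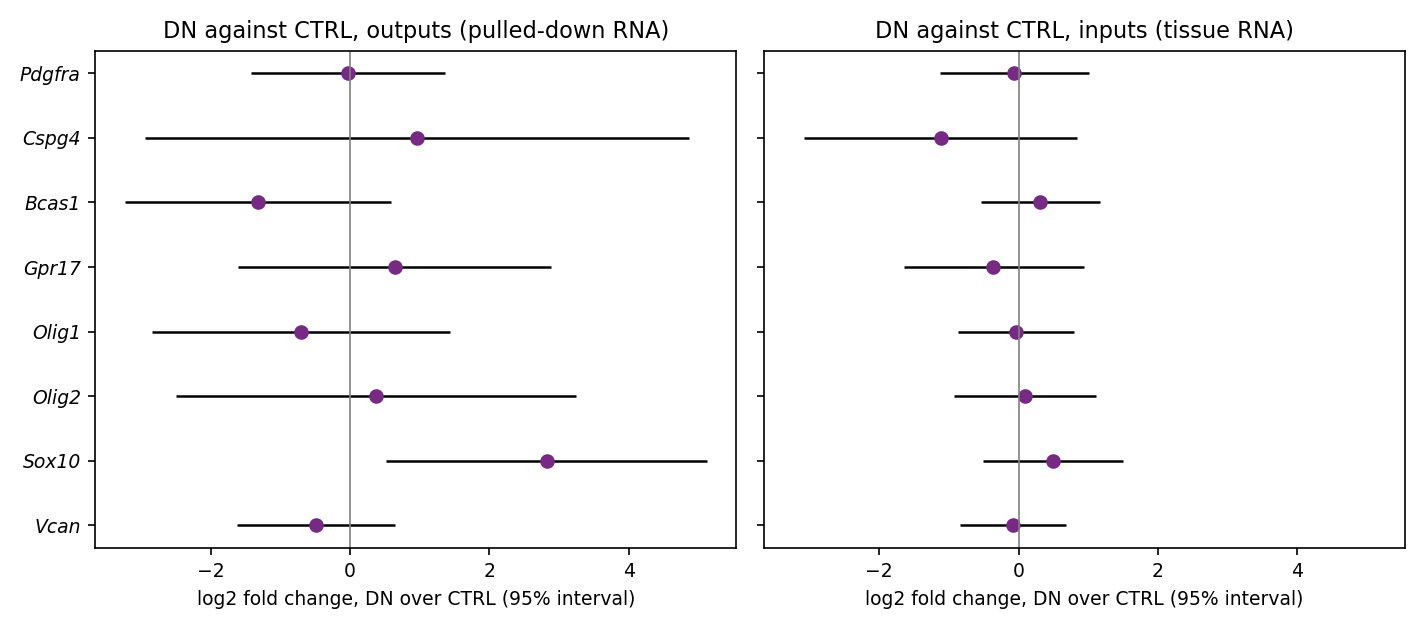
Fitted log2 fold change of DN over CTRL with its 95% interval for each of the 8 genes, in outputs on the left and in inputs on the right (3 DN and 3 CTRL libraries each). The interval includes 0 for every gene but Sox10 in outputs (0.52 to 5.13), whose adjusted p over all genes was 0.911, and intervals are narrower in inputs.

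In inputs, 0 of 8 members were called, where 0% of 13221 genes fell and 0.00756% rose, which is 1 gene. At an unadjusted p below 0.05 there were 589 genes and 0 members, and DESeq2 called 2 genes and no member. All 8 members overlapped between DN and CTRL, while 5.37% of all genes had every DN input below every CTRL input and 5.17% above. Log2 fold changes lay between -0.08 and 0.09 for Vcan (interval -0.84 to 0.68), Pdgfra (-1.13 to 1.01), Olig1 (-0.87 to 0.79) and Olig2 (-0.93 to 1.11). Sox10 stood at 0.50 (-0.51 to 1.50), Bcas1 at 0.31 (-0.54 to 1.17), Gpr17 at -0.36 (-1.65 to 0.94) and Cspg4 at -1.12 (-3.08 to 0.84). The summed level averaged 145 ± 29.8 CPM in DN inputs and 141 ± 8.73 CPM in CTRL inputs. The Pdgfra value rested on DN input 2: it was -0.96 without that library, and -0.53 by limma-voom.

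Whether the fall from input to output differed between DN and CTRL was tested as an interaction over 15011 genes. By edgeR 0 genes passed and 933 had an unadjusted p below 0.05, among them 1 member, Sox10. DESeq2 called 91 genes, none of them a member. Bcas1 had a difference, DN minus CTRL, of -1.63 ± 0.79 (interval -3.30 to 0.04, adjusted p = 0.808, edgeR). Sox10 had a difference of 2.33 ± 1.07 (0.06 to 4.61, adjusted p = 0.783, edgeR), which was 0.72 without DN pool 2. The fall of Sox10 in CTRL is thus not shown to differ from its change in DN. The differences were 2.08 for Cspg4 (-2.52 to 6.68), 1.0 for Gpr17 (-1.46 to 3.46), 0.28 for Olig2 (-2.41 to 2.97), 0.03 for Pdgfra (-1.50 to 1.55), -0.40 for Vcan (-1.68 to 0.87) and -0.67 for Olig1 (-2.53 to 1.19). With 1 pool left out, Olig1 ran from -1.51 to -0.04, Gpr17 from 0.30 to 1.50 and Bcas1 from -1.89 to -1.16.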

How the data were processed

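The authors deposited 1 table of whole-number read counts per Ensembl gene for each of the 12 libraries, with no normalization. The build GRCm38 and the tools STAR 2.4.2a, HTSeq 0.6.1 and cutadapt 1.3 are named per the submitters' processing notes. Per the labels, RNA was extracted with a Nucleospin kit and amplified linearly with the NuGEN Ovation system, which can add spread between libraries for genes of few molecules. The annotation release, strand setting and parameters were not given in the sources used here. The 5 HTSeq classes of reads without a gene, 24 to 26.1% of all counts in outputs and 16.1 to 17% in inputs, were left out.

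Symbols, positions and exon lengths came from GENCODE release M21 (GRCm38), which held 46005 of 46517 identifiers. Members and gene lists were chosen with earlier results of these data known, so no count over them is independent support. The listed symbol 9630013A20Rik was not matched. No pair of libraries held identical values.

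Each comparison was fitted on its 6 libraries with the quasi-likelihood test of edgeR 4.0.16 in R 4.3.3 (TMM scaling, filterByExpr with minimum count 10 and minimum total 15, two-sided), with Benjamini-Hochberg adjustment over all genes tested at 0.05. All 8 members passed the filter in every comparison. The interaction was fitted on all 12 libraries. The script was first tested on simulated data. Means are given with SD, fold changes with SE. Genes named beside the 8 members were at most 3 per list and comparison, those with the smallest p, then Nr5a1 and Fezf1, and the 6 most alike in profile. Rpl10, Rpl10a, Prkaa1 and Prkaa2 were tested as well and did not pass in any comparison by edgeR; by DESeq2, Rpl10a was higher in CTRL output than in CTRL input (adjusted p = 0.00925). Apod, Lims2, Col3a1, Higd1b, Acta2, Myh11 and, in DN, Pdgfa were named after their values were seen. The DN values of Bcan, Myrf and Ednrb and the CTRL value of Fabp7 were also added after they were seen.

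The series design states that input and output came from the same pool, so the pool was fitted as a block in an alternative. Across genes, deviations from the group means of input and output of 1 pool correlated at -0.00229 to 0.0153 in DN and 0.035 to 0.156 in CTRL. Also tried were limma-voom with sample weights (limma 3.58.1), DESeq2 1.42.0, other scaling, other filters, 1 fit of all libraries, mitochondrial genes left out, other pseudocounts (0.1 and 5) and each library or pool left out.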

Additional observations from a re-analysis of the deposited data

How the results depend on the processing

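The number of members that fell was 2 in DN, and it was 4 by DESeq2 (also Olig1, adjusted p = 0.000938, and Olig2, 0.0294), 1 by limma-voom, 1 with the pool as a replicate block and 0 to 1 with 1 pool left out. Without the low-count filter, at a mean of at least 5 CPM or in 1 fit of all 12 libraries it was 3. In CTRL it was 4, and 0 to 2 with 1 pool left out, 5 by DESeq2, with the pool block and without the filter, and 3 in the 12-library fit. It was also 3 at 5 CPM, where Sox10, Olig2, Gpr17 and Cspg4 were filtered out and not tested. In DN, the 5 CPM filter removed Olig2, Gpr17 and Cspg4. By DESeq2, Cspg4 had no adjusted p in DN output against DN input or in DN output against CTRL output. Beyond the changes given beside the results, the pool block changed no call of a member. Among list genes, the calls of Fabp7 in DN and of Tns3, Myrf and Bcan in CTRL were also lost by limma-voom and in the 12-library fit (adjusted p = 0.0515 to 0.112), that of Hapln4 in DN by limma-voom (0.0531) and in CTRL in the 12-library fit (0.0761). DN against CTRL and the interaction gave 0 members under all alternatives run. Signs turned in values that had not passed a test. Cspg4, output against input in DN, was -2.44 by limma-voom, -2.91 with the pool block and -4.48 to 1.06 with 1 pool left out, and Gpr17 was -1.18 to 0.00. In DN against CTRL outputs, limma-voom and a block on the replicate number gave 0.07 and 0.08 for Pdgfra and -0.94 and -0.56 for Cspg4. With 1 library left out these ran from -0.36 to 0.24 (Pdgfra), -4.44 to 3.36 (Cspg4) and -0.95 to 1.64 (Olig2). In DN against CTRL inputs they ran from -0.96 to 0.32 (Pdgfra), -0.20 to 0.59 (Bcas1), -0.19 to 0.14 (Olig1), -0.07 to 0.26 (Olig2) and -0.35 to 0.14 (Vcan). The interaction of Cspg4 was -0.37 with the pool block, and with 1 pool left out the ranges were -2.97 to 4.01 (Cspg4), -0.35 to 0.94 (Pdgfra), -1.0 to 1.39 (Olig2) and -0.82 to 0.17 (Vcan). Where DN and CTRL libraries share a number they are unrelated pools (correlations of -0.0134 to 0.00562). Over all genes, 201 fell and 240 rose in DN, against 621 and 503 by DESeq2, 481 and 495 without the filter and 59 to 77 and 56 to 71 with 1 pool left out, and 378 rose in the 12-library fit. In CTRL 191 fell and 240 rose, against 575 and 597 by DESeq2, 427 and 476 without the filter, and 32 to 114 and 13 to 100 with 1 pool left out. DN against CTRL inputs gave 1 gene, 8 by limma-voom, 2 by DESeq2, 39 without the filter and 0 to 8 with 1 library left out, and the interaction 0, 91 by DESeq2 and 54 without the filter. The cause of these changes was not tested. Cspg4 had 2, 487 and 6 counts in DN outputs 1, 2 and 3. Its DN output against DN input value was 1.06 without pool 1, -4.48 without pool 2 and 0.96 without pool 3. The counts of 2 and 6 are few, so these libraries measure the gene imprecisely.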
